A study of Mus musculus with 18 samples.

Results

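The laminins and nidogens examined here are 9 genes: the laminin alpha chains Lama1, Lama3, Lama4 and Lama5, the beta chains Lamb1 and Lamb3, the gamma chain Lamc1, and the nidogens Nid1 and Nid2. They were taken as a list of names, and all 9 were found among the 31053 genes counted in each of 18 single-cell libraries of mouse mammary gland and embryonic skin. Laminins are secreted trimers of 1 alpha, 1 beta and 1 gamma chain that self-assemble into the sheet of the basement membrane, the matrix layer on which the mammary epithelium rests. Alpha chains carry the main sites for integrins and dystroglycan on the cell surface. The nidogens bind the gamma chain and bridge the laminin sheet to collagen IV and perlecan. In the mammary gland the contractile basal (myoepithelial) cells touch this membrane directly, luminal cells line the duct and reach it mainly in alveoli, and fibroblasts lie on its outer face.

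Each library was made from pooled animals per the study's methods, so a library and not a cell was the replicate and p-values measure the spread between libraries. C57BL/6 mice gave 7 libraries, namely the E18.5 mammary rudiment and E18.5 adjacent skin (embryos carrying Lgr5-GFP, which guided dissection), the 5-day gland, the pre-puberty gland (2.5 weeks by its label, given as younger in the study's text), 5-week terminal end buds (TEBs) and 5-week ducts (both from E-cadherin-GFP females), and the adult virgin gland at 10 weeks. SWISS mice gave 1 adult virgin library at 10 weeks. FVB/NJ mice gave 3 adult virgin libraries at 10 weeks (A10, P7 and D12), 2 at pregnancy day 12.5 (H and G), 2 at pregnancy day 18.5 (F4 and B4), 2 on day 10 of lactation (F11 and D6) and 1 gland after involution, labelled 3 weeks post birth. None was treated, estrus was not staged, and the sorts removed blood and endothelial cells and selected on CD24 and CD29 (integrin beta-1, a subunit of laminin receptors). The sort therefore acted on a receptor of these ligands, and its part in the levels was not tested.

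Totals ran from 9920346 to 93234616 unique molecular identifiers (UMIs) per library, and 132599 of 149371 barcodes were kept. The median depth of kept cells ran from 2498 UMIs in P7 to 21609 in the TEB library. In lactation 48.6% (F11) and 68.9% (D6) of barcodes passed the study's cell limits, and at least 86.2% passed in each other library. Of 153 pairs of libraries, 120 shared cell barcodes. The most shared was 253 (F4 and G, 2.02% of the smaller library), and the largest share was 2.58% (duct and G, 51 barcodes). Cells were placed in classes by marker genes that include none of the 9 members. This gave 44737 basal cells, 40557 luminal progenitor (LP)/alveolar cells, 21924 mature luminal (ML) cells and 12224 fibroblasts, with 3927 cells of the E18.5 rudiment kept as a class of their own. In the E18.5 mammary library 1714 further kept cells, with a median of 9900 UMIs, reached no class, and the rudiment levels leave them out. Per 10000 UMIs, the median of the basal marker panel was 245 in the basal class, against 5.44 in the LP/alveolar and 0.406 in the ML class. Levels are CPM, the UMIs of a gene per 1000000 UMIs of the class outside 8 milk genes, and intervals are 95% Poisson intervals that cover counting error only.

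In the GENCODE vM21 annotation of GRCm38 each member is a protein-coding gene. Lama1 lies at chr17:67697259-67822647 on the plus strand, Lama4 at chr10:38965515-39110188 (plus) and Lama5 at chr2:180176373-180225859 (minus). Lamb1 lies at chr12:31265234-31329644 (plus), and both Lamb3, at chr1:193207699-193343878 (plus), and Lamc1, at chr1:153218922-153332786 (minus), are on chromosome 1. Nid1 lies at chr13:13437551-13512269 (plus) and Nid2 at chr14:19751265-19811787 (plus). Some spans overlap other annotated genes on the same strand: Mir7005 within Lama5, 4930570N18Rik and Gm37691 with Lamb3, and Gm38009 with Lamc1. Reads from such overlaps cannot be assigned with certainty.

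RefSeq promoter windows of GRCm38.p6 ran from 250 bases before a start to 50 after it. Those of Lamb3, Lama5, Lamb1 and Nid1 are shown because windows were available for them, and they were not chosen by class pattern. As described below, Lamb3 was high in basal cells and Lama5 was shared by basal and luminal cells. Lamb1 was shared by basal cells and fibroblasts, and Nid1 was highest in fibroblasts. RefSeq gives Lamb3 a further start with a window at chr1:193301993-193302292, which is not printed. Promoters of Lama1, Lama3, Lama4, Lamc1 and Nid2 are not shown. Each is written 5′ to 3′ on the strand of the gene, and capitals mark GC boxes (GGGCGG) or AP-1 motifs (TGANTCA) on either strand.
Lamb3, chr1:193301744-193302043, plus strand: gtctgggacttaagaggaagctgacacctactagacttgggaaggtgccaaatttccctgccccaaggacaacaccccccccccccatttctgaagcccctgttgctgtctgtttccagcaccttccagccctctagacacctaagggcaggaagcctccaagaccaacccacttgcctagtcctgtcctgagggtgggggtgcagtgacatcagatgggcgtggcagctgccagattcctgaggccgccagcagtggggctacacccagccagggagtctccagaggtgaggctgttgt
Lama5, chr2:180225810-180226109, minus strand: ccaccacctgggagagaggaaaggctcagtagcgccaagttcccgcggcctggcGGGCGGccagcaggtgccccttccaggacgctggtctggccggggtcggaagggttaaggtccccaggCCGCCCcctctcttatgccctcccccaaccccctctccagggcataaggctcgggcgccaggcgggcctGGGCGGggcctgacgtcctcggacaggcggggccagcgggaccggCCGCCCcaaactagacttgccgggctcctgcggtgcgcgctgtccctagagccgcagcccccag
Lamb1, chr12:31265043-31265342, plus strand: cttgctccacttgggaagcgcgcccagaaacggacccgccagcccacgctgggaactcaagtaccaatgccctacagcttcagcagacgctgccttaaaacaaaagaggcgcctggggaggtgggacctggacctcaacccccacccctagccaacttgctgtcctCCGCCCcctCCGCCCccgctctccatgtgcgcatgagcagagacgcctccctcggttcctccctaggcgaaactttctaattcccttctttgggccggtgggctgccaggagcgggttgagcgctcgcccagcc
Nid1, chr13:13437352-13437651, plus strand: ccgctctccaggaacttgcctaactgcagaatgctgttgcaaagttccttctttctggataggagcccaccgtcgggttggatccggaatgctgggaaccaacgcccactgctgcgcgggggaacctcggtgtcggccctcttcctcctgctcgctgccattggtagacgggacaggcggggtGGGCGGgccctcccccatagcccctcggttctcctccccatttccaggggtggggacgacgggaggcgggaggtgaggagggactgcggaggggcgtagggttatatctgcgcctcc

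The 4 printed windows differed in these letters. Lama5 held 4 GC boxes whose leftmost bases lay at -196, -128, -59 and -14 from the start and was 72.7% G or C. Lamb1 held 2, at -84 and -75, with a CCAAT motif at -187, and Nid1 held 1 at -67 with a CCAAT motif at -91. Lamb3 held none and was 59.3% G or C, as was the window of its further start. Over 32851 RefSeq promoter windows of this length, 35.7% held GGGCGG, 37.4% CCAAT and 7.81% TGANTCA. The AP-1 letters were in none of these 4 windows, nor were CACGTG (7.15% of all windows) or TATAAA (13.6%). A match of letters is a description of the window and not of binding.

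Lama3 lies at chr18:12333819-12583013 on the plus strand and overlaps Gm29201 on that strand.

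The first comparison asked which cells of the adult gland carry the transcripts. Among basal, LP/alveolar and ML cells and fibroblasts of the 5 adult libraries, basal cells had the highest mean levels of Lama1, Lama3 and Lamb3, fibroblasts had the highest of Lama4, Lamc1, Nid1 and Nid2, Lama5 was highest in ML cells, and Lamb1 was near the same level in basal cells and fibroblasts. Lama1, the alpha chain of laminin-111, was 69.4, 52.5, 17.8, 50.1 and 91.2 CPM in basal cells of A10, P7, D12, C57BL/6 and SWISS, a mean of 56.2 ± 27 (SD, n = 5). It was 0.308 to 4.74 CPM in LP/alveolar cells of the same libraries, so the ranges did not overlap. Lama3, the alpha chain of laminin-332, was 48.2, 55.8, 41.1, 124 and 91 CPM in basal cells against 3.72 to 15.6 in LP/alveolar cells. Lamb3, its beta chain, was 80.8, 233, 130, 148 and 85.9 CPM in basal cells against 14.6 to 48.5 in LP/alveolar cells. Each of the 5 libraries was higher in basal cells for all 3 of these genes.

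**Figure D1:**
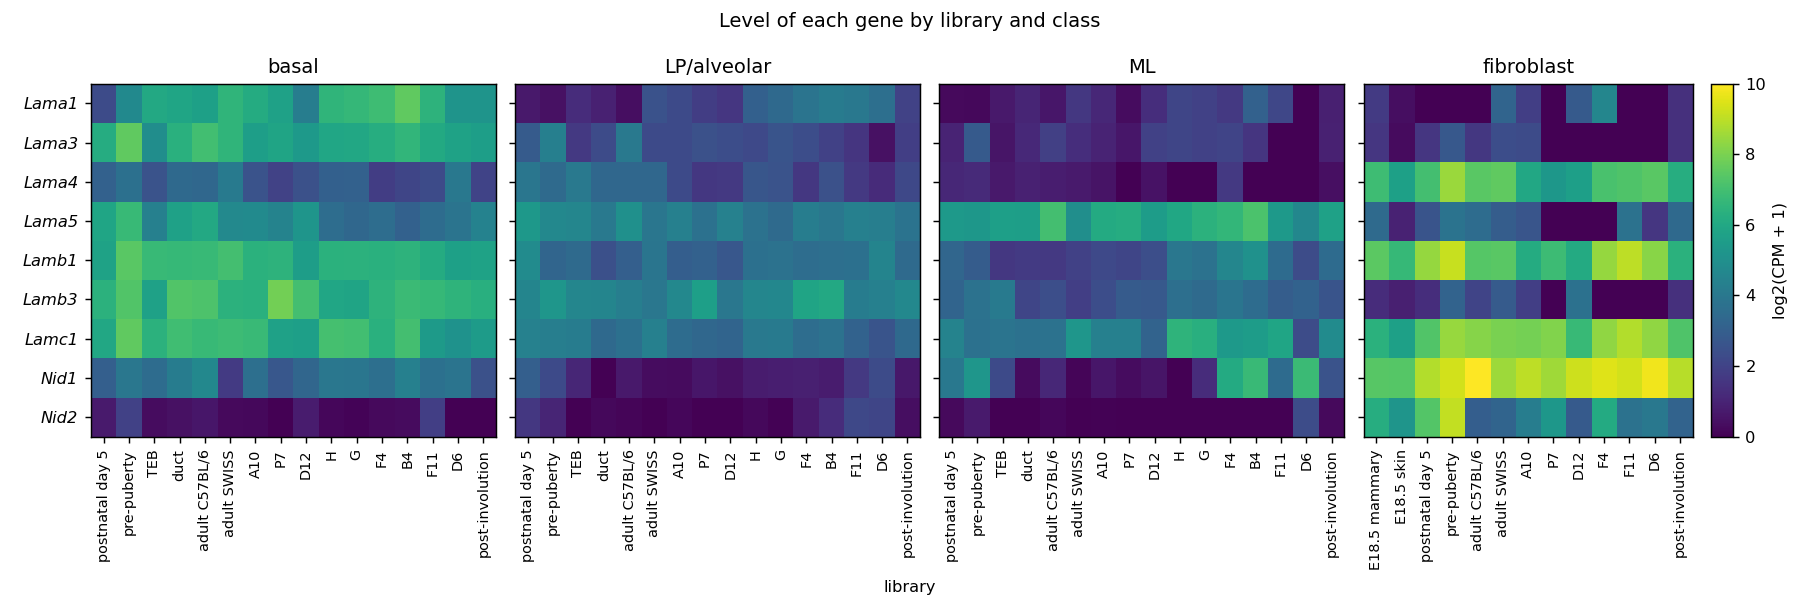
Level of each of the 9 genes (rows) in each library (columns) with at least 20 cells of the class, in 4 panels for basal, LP/alveolar and ML cells and fibroblasts; color gives log2(CPM + 1), from dark blue (low) to yellow (high). Lama1, Lama3 and Lamb3 are brightest in basal cells and Nid1 in fibroblasts. Lama5 is brightest in ML cells except at day 5, at pre-puberty and in ducts, where basal cells had 58.5, 105 and 51.8 CPM and ML cells 40.7, 38.1 and 47.8.

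Against LP/alveolar cells, 7 of the 8 members tested were higher in basal cells by edgeR's quasi-likelihood test with library as a block (Benjamini-Hochberg adjusted p under 0.05 over all genes), in a contrast where 47.5% of all genes were called. Nid2 was too low to test. On the log2 scale the members' median difference was 3.05, beside 0.01 over all genes tested. Nid1 differed by 4.53 (SE 0.38, adjusted p = 4.3e-05), a 23.0-fold higher level. Lama1 differed by 4.36 (SE 0.40, adjusted p = 6.2e-05), or 20.5-fold. Lama3 differed by 3.54, Lamb1 by 3.34, Lamc1 by 2.76 and Lamb3 by 2.41. The smallest difference that passed was that of Lama5, the alpha chain of laminin-511, at 0.67 (SE 0.14, adjusted p = 0.0044), or 1.59-fold. Lama4, an alpha chain best known from vessels and adipose tissue, was at 2.98 to 16.3 CPM in basal cells and did not pass (0.44, SE 0.22, adjusted p = 0.14).

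Against ML cells, the hormone-sensing luminal class, all 8 tested members passed, 7 higher and 1 lower in basal cells, where 57.8% of all genes were called, and Nid2 was again too low. Lama1 was 46.9-fold higher, Lama3 39.8-fold, Lamb3 27.2-fold, Lamb1 27.1-fold, Nid1 20.3-fold, Lama4 14.7-fold and Lamc1 4.66-fold. Lama5 was the exception, with 26.8, 21.2, 35.6, 64.6 and 25 CPM in basal cells and 68.3, 72.8, 44.6, 126 and 30.1 in ML cells of A10, P7, D12, C57BL/6 and SWISS. The level was higher in ML cells in each of the 5 libraries, although the ranges over libraries overlapped. The difference was -0.94 (SE 0.23, adjusted p = 0.0073). Without the library as a block neither Lama5 contrast passed, at 0.68 against LP/alveolar cells and -0.97 against ML cells, and every other call of the members stood. ML cells also kept Lamc1 at 8.14 to 37.0 CPM, which was above the LP/alveolar level in each of them but D12.

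Fibroblasts divided the members evenly. Against fibroblasts, 4 of 9 members were higher in basal cells and 4 lower, where 45.4% of all genes were called. Lama3 was 31.9-fold higher in basal cells, Lamb3 26.8-fold, Lama1 22.8-fold and Lama5 5.66-fold. Nid1 was 58.6-fold lower in basal cells (log2 difference -5.87, SE 0.31, adjusted p = 1.7e-11), with 5.58 to 24.6 CPM in basal cells of 4 adult libraries and 2.25 in the SWISS library, against a mean of 572 ± 262 CPM (SD, n = 5) in fibroblasts. Nid2 was 33.6-fold lower, Lama4 12.6-fold lower and Lamc1, with 234 ± 75.0 CPM in fibroblasts and 85.7 ± 32.0 in basal cells, 2.41-fold lower. Lamb1 was 118 ± 50.3 CPM in fibroblasts and 90.1 ± 30.2 in basal cells and did not pass (log2 difference -0.20, SE 0.22, adjusted p = 0.48).

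**Figure D2:**
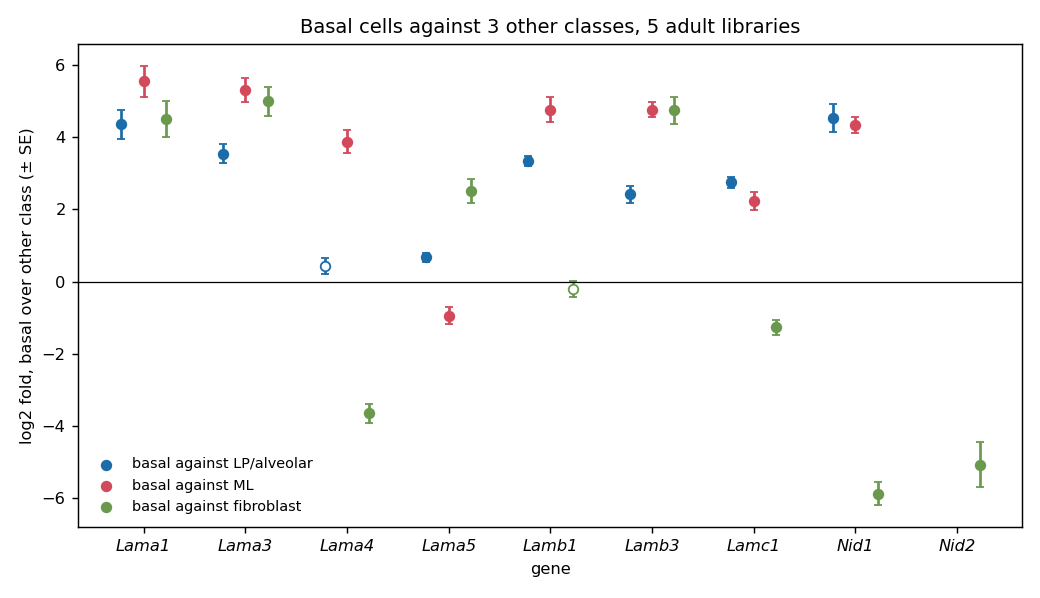
Log2 difference of basal cells from LP/alveolar cells, ML cells and fibroblasts in 5 adult libraries, on the vertical axis, for each gene, with bars of ± 1 SE; filled points passed the test and open points did not. Lama1, Lama3 and Lamb3 lie above 0 (higher in basal cells) in all 3 contrasts, Lama5 lies below 0 against ML cells, and Nid1 and Nid2 lie lowest, against fibroblasts.

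Of a list of 49 other genes of the basement membrane and its receptors, 36 were higher and 4 lower in basal than LP/alveolar cells among 45 tested, 34 higher and 2 lower than in ML cells among 45, and 21 higher and 17 lower than in fibroblasts among 43. Their median log2 differences were 1.86, 2.02 and 0.53, beside 0.01, 0.03 and 0.16 over all genes tested. Of all genes, 47.5%, 57.8% and 45.4% were called in these contrasts. Against LP/alveolar cells Sparc, a collagen-binding glycoprotein, rose most (5.77), followed by the hemidesmosome collagen Col17a1 (5.14), the gelatinase Mmp2 (5.07) and the anchoring-fibril collagen Col7a1 (5.05). Against ML cells Sparc differed by 6.02 and the collagen IV chains Col4a2 and Col4a1, which form the second network of the membrane, by 5.79 and 5.69. Against fibroblasts Lama2, an alpha chain of muscle and nerve, was at -7.08, Mmp3 at -11.37 and Smoc2 at -7.0, while Col4a6 was 5.93 higher.

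The 11 laminin receptors of that list had median log2 differences of 1.06 against LP/alveolar and 1.56 against ML cells, beside 3.05 and 4.55 for the members. Itga6, the laminin-binding alpha-6 integrin, was higher in basal cells by 1.92 against LP/alveolar cells, 1.63 against ML cells and 3.92 against fibroblasts. Its hemidesmosome partner Itgb4 differed by 0.77 (adjusted p = 0.049) and 0.52 (adjusted p = 0.12) from the luminal classes. Dag1 (dystroglycan) differed by 1.42 and 1.82, and Bcam, a receptor for Lama5, by 1.52 and 2.49.

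Because a laminin trimer holds a single alpha chain, the make-up of the alpha transcripts was described as the share of all UMIs of the 5 alpha genes, the members with Lama2, in each library and class with at least 50 such UMIs. These are 3′ counts, so gene length does not enter, but genes can differ in capture and the shares are best compared between classes. In ML cells Lama5 was 83.0% to 98.9% of alpha UMIs over 13 libraries (median 93.8%). In LP/alveolar cells it was 33.0% to 70.3% over 15 libraries (median 53.0%), beside Lama4 (median 16.2%), Lama1 (13.4%) and Lama3 (12%). In basal cells of 16 libraries Lama1 ran from 2.73% to 63.3% (median 40.1%), Lama3 from 24.4% to 56.4% (median 40.1%) and Lama5 from 2.58% to 41.1% (median 16.2%). Lama5 was above Lama1 in basal cells of day 5, pre-puberty, adult C57BL/6 and D12. In fibroblasts Lama2 (31.1% to 64.6%) and Lama4 (33.5% to 61.5%) made up nearly the whole. The Lama5 share in ML cells did not overlap with that in the basal class in any library.

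**Figure D3:**
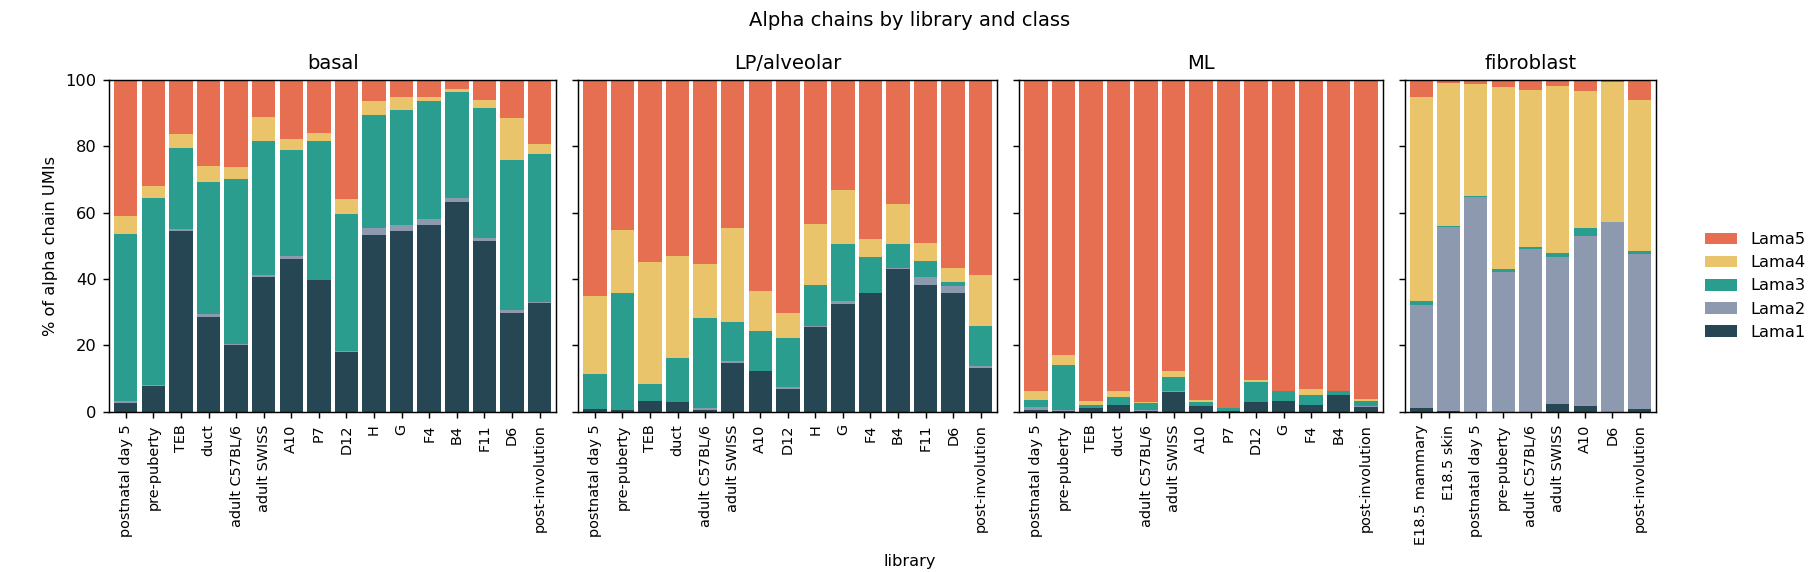
Share of the UMIs of 5 laminin alpha genes held by each gene, in percent, per library and cell class with at least 50 such UMIs; each stacked bar is 1 library. Lama5 fills most of each ML bar, Lama1 and Lama3 most of the basal bars, and Lama2 with Lama4 most of the fibroblast bars.

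Across the C57BL/6 libraries the basal alpha chains differed with age, with 1 library per age and so without a test. The adult library shared 15 cell barcodes with pre-puberty and 11 with day 5, but 1 with the E18.5 mammary library and 0 with TEBs or ducts. TEBs and ducts shared 42 and 29 with the FVB/NJ library A10. Age, processing and library cannot be told apart here. Lama1 in basal cells was 3.88 CPM (95% interval 3.15 to 4.72) at day 5, 26.2 (23.9 to 28.5) at pre-puberty, 64.2 in TEBs, 57.7 (53.3 to 62.5) in ducts and 50.1 (46.1 to 54.4) in the adult. It was 4.47 CPM (3.77 to 5.26) in the E18.5 rudiment. Lama1 was thus 2.73% of basal alpha UMIs at day 5, 7.93% at pre-puberty, 54.4% in TEBs and 28.7% in ducts. Lama3 and Lama5 stood highest at pre-puberty, at 186 and 105 CPM, against 71.5 and 58.5 at day 5 and 124 and 64.6 in the adult. Lamb1 and Lamc1 were also highest at pre-puberty in basal cells, at 173 and 185 CPM, the highest basal levels of both genes in any of 16 libraries. In the rudiment Lamc1 was 40.1 CPM, Lamb1 38.9, Lama5 26.9, Lama4 15.3, Lamb3 8.01, Lama3 7.01, Nid1 3.35 and Nid2 0.96. The laminin-332 chains Lama3 and Lamb3 were lower there than in basal cells of every postnatal library, where their lowest levels were 28.8 and 52.4 CPM. The rudiment cells were kept as a class of their own and not split into basal and luminal cells, and 1714 cells of that library with no class are left out. In the luminal classes of day 5, Lama3 was 6.29 CPM (LP/alveolar) and 0.989 (ML), and Lamb3 was 22.2 and 8.31. The basal markers Krt14 and Acta2 were 9902 and 2843 CPM in basal cells of day 5, against 3587 and 12416 at pre-puberty. The gate had no class for skin epidermis, and the study considered some clusters of these libraries to be contaminating skin or stromal cells. The part of cell make-up in the differences between the rudiment and postnatal basal cells, or between basal cells of different ages, was not tested.

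Nid2 was a stromal transcript in these libraries with a wide range. In fibroblasts it was 74.8 CPM (66.0 to 84.3) in the E18.5 mammary library and 35.9 (34.3 to 37.6) in E18.5 skin, 159 (142 to 178) at day 5, 541 (503 to 581) at pre-puberty and 7.0 (4.27 to 10.8) in the adult C57BL/6 library. Basal cells never exceeded 2.80 CPM and ML cells had no Nid2 UMI in 10 of 16 libraries, where the limit that a count of 0 allows depends on the number of cells. Nid1 in fibroblasts ran from 166 CPM in E18.5 skin to 1007 in the adult C57BL/6 gland. In the pre-puberty library 71 cells passed on Schwann markers but also carried fibroblast markers, with a median fibroblast panel of 78.0 per 10000 UMIs. Their Nid1, Nid2 and Lamb1 were 585, 516 and 563 CPM, beside 639, 541 and 569 in the fibroblasts of that library, so their levels are not read as those of Schwann cells.

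Adult strains differed in some members within basal cells, again with 1 library for C57BL/6 and for SWISS. Nid1 was 24.6 CPM (21.9 to 27.7) in C57BL/6 and 2.25 (1.67 to 2.96) in SWISS, with the 3 FVB/NJ libraries between them at 5.58 to 11.7. Lama3 and Lama5 were also highest in C57BL/6, at 124 and 64.6 CPM, above the FVB/NJ ranges of 41.1 to 55.8 and 21.2 to 35.6. Lama1 and Lamb1 were highest in SWISS, at 91.2 and 127 CPM. The C57BL/6 and SWISS libraries shared 42 cell barcodes with each other and 5 each with A10, beside 90 for A10 and D12 and 0 for A10 and P7. Without replicates in these strains, strain, processing and library cannot be told apart.

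TEBs, the bulbous tips that drive ductal elongation in puberty, were compared with the ducts behind them, with 1 library each, no test, and a 2-fold ratio among genes at 5 CPM or more as the fixed size. Basal cells of TEBs had less Lama3, Lamb3 and Lama5 than basal cells of ducts, and near the same level of Lama1 and Lamb1. Past the 2-fold ratio were 3 of 8 members, all higher in ducts, where 12.3% of all genes were past it. Lama3 was 28.8 CPM in TEBs and 80.0 in ducts, a duct to TEB ratio of 2.78 (95% interval 2.44 to 3.17). Lamb3 was 52.4 and 153 CPM, a ratio of 2.92 (2.66 to 3.22). Lama5 was 19.2 and 51.8 CPM, a ratio of 2.69 (2.30 to 3.17). The intervals cover counting error only, and the spread between animals is unknown for these structures.

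The other basal members differed less. Lama1 was 64.2 CPM in TEBs and 57.7 in ducts, a TEB to duct ratio of 1.11 (0.997 to 1.24), and Lamb1 was 106 and 102 CPM (1.04, 0.961 to 1.13). Lamc1 was 85.1 and 122 CPM (0.696, 0.640 to 0.757), Nid1 10.7 and 17.6 (0.608, 0.479 to 0.768) and Lama4 4.90 and 9.72 (0.504, 0.357 to 0.705). Nid2 had 3 and 4 UMIs. Past 2-fold in basal cells were 14 of the 36 genes of the 49-gene list at 5 CPM or more, beside 12.3% of all genes. Of these 14, 11 were higher in ducts. Those higher in ducts included Lamb2, Col4a5, Col4a6, Col15a1, the receptors Itgb4, Bcam and Sdc4, the hemidesmosome and anchoring genes Dst and Col7a1, and Mmp2. Fbln1, Tinagl1 and Egflam were higher in TEBs. Itgb4, the integrin chain that binds laminin-332, was 7.48 CPM in TEBs and 37.3 in ducts. The collagen IV chains differed among themselves, since Col4a1 was 405 CPM in TEBs and 424 in ducts while Col4a5 was 25.8 and 60.9.

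The luminal classes had fewer members past the ratio. In LP/alveolar cells 1 of 5 members was past 2-fold (7.91% of all genes), Lamb1 at 10.1 CPM in TEBs and 4.43 in ducts (TEB to duct ratio 2.27, 1.43 to 3.67). Lama4, Lama5, Lamb3 and Lamc1 were inside the ratio there and the other members under 5 CPM. In ML cells 1 of 3 was (6.74% of all genes), Lamb3 at 16.3 CPM in TEBs and 3.30 in ducts (4.93, 3.38 to 7.47), while Lama5 and Lamc1 were inside it and the others under 5 CPM. Lamb3 was thus higher in ducts in basal cells and higher in TEBs in ML cells. Nid1 in ML cells, under 5 CPM in both, had 89 UMIs in TEBs and 2 in ducts, a ratio of 16.4 with an interval of 4.41 to 138.

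**Figure D4:**
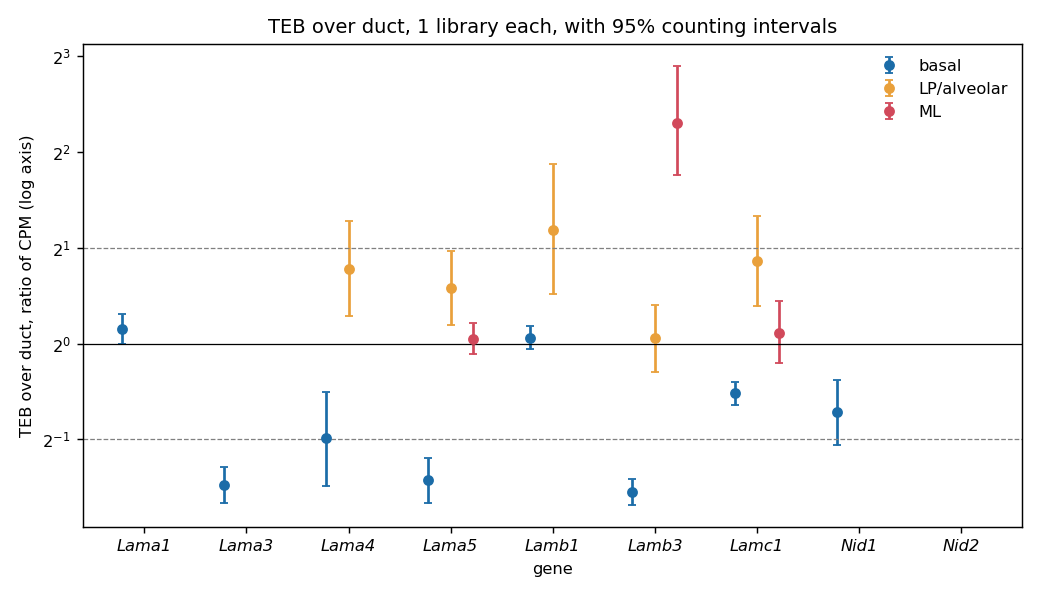
Ratio of CPM in TEBs to ducts (vertical axis, log scale) of each member at 5 CPM or more in basal, LP/alveolar or ML cells, 1 library each; bars are 95% counting intervals, the solid line marks equal levels and dashed lines a 2-fold ratio. In basal cells Lama3, Lama5 and Lamb3 lie below the lower dashed line (higher in ducts), and in ML cells Lamb3 lies above the upper one.

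The next comparison followed the members through pregnancy and lactation in FVB/NJ mice. In basal cells no member passed at any step. Lama1 was 69.4, 52.5 and 17.8 CPM in the adult libraries, 92.6 and 100 at pregnancy day 12.5, 117 and 189 at day 18.5, 87.5 and 35.2 in lactation and 34.7 post-involution. The pregnancy libraries were all above the adult ones, but the spread in the adult and lactation groups was wide, and the change to day 12.5 (log2 1.16, SE 0.56, edgeR adjusted p = 0.38) did not pass. Lama5 went the other way, with 26.8, 21.2 and 35.6 CPM in adults, 11 and 9.17 at day 12.5, 10.8 and 7.72 at day 18.5, 10.4 and 13.3 in lactation and 20.6 post-involution. All 6 pregnancy and lactation libraries lay below all 3 adult libraries. The change to day 12.5 was -1.36 (SE 0.36, adjusted p = 0.11) and that from adult to lactation -1.24 (SE 0.42, adjusted p = 0.15), so neither passed. Both passed when adult library P7 was left out (-1.59 and -1.45), and the first also passed by DESeq2 (-1.40) and with no low-count filter (-1.36).

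The remaining basal members did not pass either. Lamb1 was 46.4 to 87.8 CPM over the 9 libraries of the 4 stages. Lama3 was 41.1 to 95.2, and Lamb3 57 to 233, with P7 the highest. Lamc1 was 49.5 to 107 CPM in adults, 125 and 131 at day 12.5, 79.9 and 129 at day 18.5 and 33.3 and 43.1 in lactation, so both lactation libraries lay below all others. Its change to day 12.5 was 0.96 (SE 0.44) and passed only when adult library A10 was left out (1.53). Nid1 stayed at 5.58 to 19.4 CPM and Lama4 at 2.53 to 15.2. Nid2, with at most 8 UMIs in the basal cells of any of these libraries, was too low to test.

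The number of basal genes called gives the scale of these tests. In basal cells 0.752% of all genes were called from adult to day 12.5, 0% from day 12.5 to 18.5, 0.826% from day 18.5 to lactation and 3.33% from adult to lactation, beside 0 of 8 members in each. At an unadjusted p under 0.05 the counts over all genes were 1940, 1170, 1578 and 2424, and by DESeq2 the members called were 1, 0, 0 and 0. Of the 49-gene list, 3 of 46 tested passed and all fell, from adult to lactation: Fbln2 by 5.39, Fbln1 by 2.95 and Mmp2 by 2.67. The lactation basal classes were small, with 643 cells in F11 and 457 in D6. Their summed level of 7 endothelial markers was 87.5 to 188 CPM against 7.69 to 22.3 in adults, with 7 of 7 above every adult library, and that of 6 immune markers was 32.6 to 134 against 0.76 to 1.49, with 4 of 6 above. The mural sum was 115 to 279 against 14.8 to 36.8 CPM. At day 18.5 the fibroblast sum was 808 to 989 against 177 to 334 in adults, with 1 of 8 markers above every adult. The part of these markers in the basal values was not tested.

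In LP/alveolar cells, which build the milk-secreting alveoli, Lama1, Lamb1, Nid1 and Nid2 rose from the adult to lactation. These 4 of 9 members passed, all upward, where 29.1% of all genes were called. Lama1 was 3.79, 2.55 and 1.97 CPM in adults, 7.35 and 9.72 at day 12.5, 13.5 and 16.7 at day 18.5, 14.9 (12.4 to 17.8) and 11.6 (10.0 to 13.4) in lactation and 2.94 post-involution. The 6 pregnancy and lactation libraries lay above the 3 adult ones, and the post-involution library lay among the adults. Its change from adult to lactation was 2.48 (SE 0.38, adjusted p = 0.0018), or 5.59-fold. The step from adult to day 12.5 (1.52, SE 0.38, adjusted p = 0.033) made Lama1 the 1 of 9 members called there, beside 11.1% of all genes, and the call was lost in 7 of the 9 fits that left out 1 library.

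Lamb1 in LP/alveolar cells was 6.95, 7.65 and 5.57 CPM in adults, 12.1 and 12.8 at day 12.5, 10.9 and 11.7 at day 18.5 and 11.8 and 21.6 in lactation. The change to lactation was 1.69 (SE 0.33, adjusted p = 0.0053), and without D6 it was 1.10 and did not pass. Nid1 was 0.215, 0.510 and 0.359 CPM in adults, 0.702 and 0.799 at day 12.5, 0.818 and 0.693 at day 18.5 and 2.15 and 3.86 in lactation, with no more than 3 UMIs in an adult library. It rose by 3.66 from adult to lactation (SE 0.55, adjusted p = 0.0017). From day 18.5 to lactation it rose by 2.21 (SE 0.48, adjusted p = 0.034) and was the 1 of 9 members called, beside 4.22% of all genes. That call was lost with no TMM scaling (2.0), with at least 1000 genes per cell (2.18), and in 5 fits that left out H, G, F4, B4 or D6 (1.65 without D6). Nid2 had 2, 0 and 0 UMIs in the adult libraries A10, P7 and D12, where 0 allows up to 1.53 CPM in P7 and 0.539 in D12. It was 0.150 and 0.0320 CPM at day 12.5, 0.632 and 1.39 at day 18.5 and 3.47 and 3.23 in lactation, and passed from adult to lactation (5.40, SE 0.88, adjusted p = 0.0023).

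Levels of other cells' markers moved with these changes. In LP/alveolar cells the summed endothelial markers were 5.74 to 10.2 CPM in adult FVB/NJ libraries and 53.2 to 53.8 in lactation, with 6 of 7 above every adult library. The summed immune markers went from 0 to 1.15 up to 18.6 to 26.5 CPM (6 of 6 above), the adipocyte markers from 0.359 to 8.16 up to 58.0 to 84.5 (5 of 5) and the fibroblast markers from 15.6 to 31.1 up to 39.1 to 56.0 (5 of 8). The mural sum was 25.1 to 38.8 CPM in adults and 31.8 to 48.0 in lactation (5 of 7 above). Nid1 was 890 CPM in the fibroblasts, 215 in the mural cells and 150 in the endothelial cells of D6, and Nid2 was 14.8, 21.5 and 33.0 CPM. Lamb1 was 57.2 CPM in the mural cells and 46.5 in the adipocytes of D6. The part of these cells in the nidogen and Lamb1 values was not tested. The sum of the basal markers was 273 to 1221 CPM in adult LP/alveolar cells and 147 to 675 in lactation, with 0 of 10 above every adult. At day 12.5 the sum was 1231 to 1725, with 6 of 10 above, and at day 18.5, where Lama1 stood highest, 675 to 1847, with 3 of 10 above (Mylk, Myh11 and Oxtr). Of these markers Acta2 was 113 (A10), 125 (P7) and 581 CPM (D12) in adults and 301 (F11) and 46.8 (D6) in lactation. For Acta2 that bar was thus set by D12, and the count cannot show a rise below it. In D6 the LP/alveolar level of Lama1 was 33.0% of the basal level, while Lama3 was at 0.7%, and in F11 these were 17.1% and 2.87%. At day 12.5 the shares lay closer, with Lama1 at 7.93% (H) and 9.72% (G) and Lama3 at 6.02% and 8.01%. At day 18.5 Lama1 was at 11.5% (F4) and 8.81% (B4) and Lama3 at 5.59% and 2.91%. Adult libraries had Lama1 at 5.47% (A10), 4.86% (P7) and 11.1% (D12) and Lama3 at 7.73%, 8.23% and 10.1%. The Lama1 shares of H, G and B4 thus lay inside the adult range. Outside the basal and LP/alveolar classes Lama1 in lactation rested on at most 3 UMIs per class and library. It reached 9.18 CPM (1.11 to 33.1) in the endothelial cells of F11 and 5.37 (1.11 to 15.7) in the erythroid cells of D6. The part of other cells in the Lama1 values was not tested.

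Lamb3 and Lama3 in LP/alveolar cells had other courses. Lamb3 was 24.6, 48.5 and 14.7 CPM in adults, 23.3 and 23.5 at day 12.5, 56.5 and 64.9 at day 18.5 and 17.3 and 19.6 in lactation. Both day 18.5 libraries lay above all others. Neither the step up (1.51, SE 0.43, adjusted p = 0.12) nor the step down (-1.52, SE 0.44, adjusted p = 0.094) passed by edgeR, and both passed by DESeq2. No member passed by edgeR from day 12.5 to 18.5, where 1.12% of all genes were called and 2215 genes were at an unadjusted p under 0.05. DESeq2 called 2 there, Lamb3 and Nid2, and its own share of all genes is not given. Lama3 was 3.72 to 4.59 CPM in adults and 1.91 and 0.373 in lactation, a change of -1.61 (SE 0.61, adjusted p = 0.072). It passed by DESeq2 (-1.60), with no TMM scaling (-1.96), with the stricter gate (-1.85) and without F11 (-3.09). Lama5 was 9.85 to 19.9 CPM in all 9 libraries, with no change from adult to lactation that passed (0.44, SE 0.32, adjusted p = 0.32). Lamc1 was 8.26 to 10.6 CPM in adults, 15.5 and 16.2 at day 12.5, 11 and 12.5 at day 18.5 and 7.89 and 5.10 in lactation, so both day 12.5 libraries lay above all others. Lama4 was 1.37 to 5.37 CPM in the 9 libraries. Neither passed at any step.

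**Figure D5:**
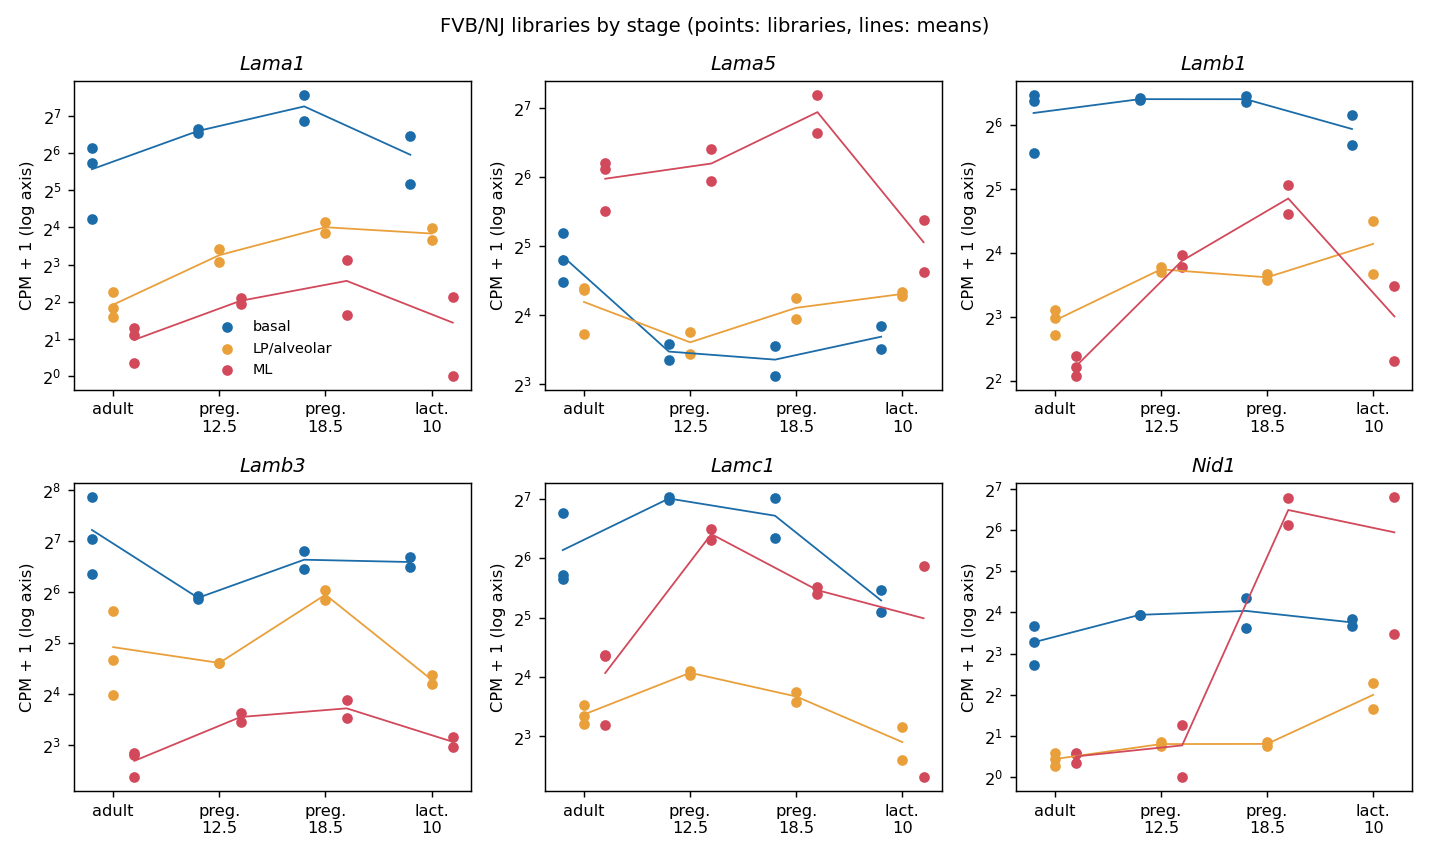
Level as CPM + 1 (log axis) of Lama1, Lama5, Lamb1, Lamb3, Lamc1 and Nid1 in each of 9 FVB/NJ libraries of the adult, pregnancy day 12.5, pregnancy day 18.5 and lactation day 10 stages; colors are cell classes, points are libraries and lines join stage means. Basal points of Lama5 lie below the adult ones from pregnancy on, LP/alveolar points of Lama1 lie above them, and ML points of Nid1 are high at pregnancy day 18.5.

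At day 12.5 the 49-gene list had 2 genes higher and 4 lower of 43 tested in LP/alveolar cells, beside 11.1% of all genes called. From adult to lactation 7 were higher and 7 lower of 43 tested, beside 29.1% of all genes called. At day 12.5 Ntn4, a netrin that disrupts the laminin sheet, fell by 4.94, the membrane protease Mmp14 by 2.25 and Bcam by 1.93, while Col4a1 rose by 1.96. From adult to lactation Ntn4 fell by 4.39 and Itga2 by 3.06, and Mmp3 and Lama2, both lower in basal cells than in fibroblasts, rose by 7.75 and 4.09. From day 18.5 to lactation 2 of 43 passed, beside 4.22% of all genes called. The protease inhibitor Timp1 rose by 4.19 and Col15a1 by 2.55.

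Whether basal and LP/alveolar cells changed differently was tested as an interaction of class and stage, basal change minus LP/alveolar change. From adult to lactation 5 of 9 members passed, where 17.8% of all genes were called. Nid1 was at -3.45 (SE 0.62, adjusted p = 0.0031), Lama1 at -2.19 (SE 0.40, adjusted p = 0.0033), Lamb1 at -1.88 (SE 0.39, adjusted p = 0.0069) and Lama5 at -1.66 (SE 0.32, adjusted p = 0.0051), each with a smaller or more negative change in basal cells. Lama3 was at 2.09 (SE 0.49, adjusted p = 0.013), from a change of 0.34 in basal cells and of -1.61 in LP/alveolar cells. With at least 1000 genes per cell Lama3 did not pass (1.67) and Lamc1 did (-1.48). Lama4 (1.63), Lamb3 (-0.33), Lamc1 (-0.67) and Nid2 (-3.46) did not pass as tested. Without lactation library D6 only Lama1 passed. From adult to day 12.5, 0 of 9 members passed by edgeR, where 7.97% of all genes were called and 3298 were at an unadjusted p under 0.05, and 0 passed by DESeq2. The nearest was Lama5 (-0.75, SE 0.24, adjusted p = 0.079). Of the 49-gene list, the interaction in lactation called Ntn4 (5.79), Timp1 (-3.81), Fbln2 (-3.30) and Mmp2 (-2.35) with the largest differences among 11 of 47. At day 12.5 it called Itga2 (1.77), Itgb4 (-1.72) and Lamb2 (1.07).

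In ML cells the stages were tested after the levels had been seen, with 131 to 277 cells per pregnancy or lactation library, and 5 of 9 members were high enough. Lama5, Lamb1 and Lamb3 passed at none of the 3 steps by edgeR, and Lama1, Lama3, Lama4 and Nid2 were too low to test. Lamc1 was 19.7, 19.5 and 8.14 CPM in adults, 89.8 and 78.4 at day 12.5, 41.4 and 45.0 at day 18.5 and 57.7 (33.6 to 92.4) and 3.96 (0.100 to 22.1) in lactation. It rose by 2.36 to day 12.5 (SE 0.61, adjusted p = 0.039) and was the 1 of 5 called, beside 6.67% of all genes, and the call was lost on leaving out H, G, F4, B4 or D12. The basal markers in these ML cells summed to 725 to 953 CPM at day 12.5 and 187 to 1282 in adults, with Trp63 and Mylk above every adult, as were the mural genes Rgs5, Notch3 and Kcnj8. Their part in the Lamc1 values was not tested. Nid1 in ML cells was 0.509, 0.271 and 0.487 CPM in adults, 0 and 1.42 (0.0361 to 7.94) at day 12.5, 69.0 (53.3 to 88.0) and 108 (89.2 to 130) at day 18.5 and 10.2 (2.10 to 29.8) and 111 (73.7 to 160) in lactation, with 4.93 (4.03 to 5.96) post-involution. The 0 of library H allows up to 4.90 CPM, so both day 18.5 libraries lay far above every earlier one. From day 12.5 to 18.5 the change was 6.64 (SE 1.21, adjusted p = 0.12), in a step where 0% of all genes were called by edgeR, 559 were at an unadjusted p under 0.05, and DESeq2 called Nid1. From adult to lactation Nid1 rose by 6.79 (SE 0.81, adjusted p = 0.00095), the 1 of 5 called beside 2.78% of all genes. Without D6 it was 4.28 and did not pass. With at least 1000 genes per cell the direction turned (-4.46, not passing), with F11 alone for lactation because D6 then had under 20 ML cells.

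Markers of other cells in ML cells were set beside Nid1. The fibroblast sum was 40.4 to 1252 CPM in adult ML cells, 14.2 to 21.2 at day 12.5 and 18.2 to 45.7 at day 18.5, with 0 of 8 above every adult and Lum at 0 at day 18.5. In lactation it was 10.2 to 39.6 CPM, with Col1a1, Col1a2, Lum, Pdgfra and Dpt at 0. Because the adult range was wide, a count above every adult cannot show a rise below its top. The endothelial sum at day 18.5 was 9.56 to 12.4 CPM, with Cdh5, Kdr, Cldn5 and Emcn at 0, and all 6 immune markers were at 0. In lactation, the stage of the Nid1 call, the endothelial sum was 17.0 to 83.2 CPM (9.79 to 23.3 in adults), the immune sum 3.96 to 20.4 (0.541 to 0.848) and the adipocyte sum 19.8 to 27.2 (0.0696 to 1.62). Mural markers were higher, with a sum of 23.3 to 35.8 CPM in adults, 71.2 to 73.5 at day 12.5, 82.3 to 84.9 at day 18.5 and 57.7 to 147 in lactation, and 3 of 7 (Rgs5, Notch3 and Des) above every adult at day 18.5, while Cspg4 and Higd1b were at 0. Nid1 was 215 CPM in the 59 mural cells of D6. The part of these markers in the Nid1 values was not tested. The C57BL/6 libraries also had Nid1 in ML cells before puberty, at 15.2 CPM (12 to 19) at day 5 and 37.0 (32.4 to 42.0) at pre-puberty, beside 1.17 (0.862 to 1.55) in the adult. At day 5 and pre-puberty the ML level was 212% and 256% of the basal level in the same library.

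For each member the genes with the most similar profile were listed by Pearson's r of log2(CPM + 1) over 77 sums of library and class, among 14991 genes. The sums share libraries and depth, and no test was made. Acta2 and Trp63, named below, are among the basal markers that set the classes. Their likeness to genes high in basal cells is therefore no independent result. Lama1 was nearest to Il17b (r = 0.86), the smooth-muscle actin Acta2 (0.85) and the channel subunit Kcnmb1 (0.84). Lama3 was nearest to Col17a1 (0.88), Irx4 (0.85) and Trp63 (0.84). Lamb1 was nearest to Sparc (0.91), Col4a1 (0.89) and Ppic (0.89), and Lamb3 to the desmosome gene Pkp3 (0.83), Ntf5 (0.83) and Tfap2c (0.82). Lama4 was nearest to Col15a1 (0.90), Sgce (0.89) and Dlc1 (0.88), and Nid2 to Col15a1 (0.87), Csgalnact1 (0.86) and Aspa (0.83). Nid1 had Dennd2a (0.87), Col6a1 (0.86) and Sgce (0.84). Lama5 had lower values, with C77080 (0.77), the epithelial cadherin Cdh1 (0.75) and Arhgef5 (0.75), and Lamc1 was nearest to Fkbp9 (0.82), Gpr153 (0.80) and Pkd2 (0.79).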

How the data were processed

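RNA of single cells was counted in 18 droplet libraries (10x Genomics 3′ chemistry). The deposited values are raw UMI counts per gene and barcode. The authors produced these counts in Cell Ranger (3.1.0 in the submitters' processing notes, 3.0.2 in 16 file headers and 3.1.0 in 2) on mm10, exporting barcodes by a read minimum. Cells had to pass the limits that the study set on genes, counts and mitochondrial share, and doublets were removed only by its upper limits and by setting aside cells that passed on non-epithelial markers but had more epithelial ones. Cells with several non-epithelial panels took the highest. The barcodes of P7 have another length than those of the other libraries.

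Each cell was given a class from summed marker panels that hold no member: a panel had to reach 20 per 10000 UMIs, basal against luminal was cut at log2 ratios of 1 and -1, and LP/alveolar against ML at 1 and 0. Of 110463 epithelial cells, 2726 (2.47%) lay within 0.5 of a basal or luminal cut. In F11, 303 cells fell between the basal and luminal cuts, beside 643 basal cells (36 beside 457 in D6). The median LP/alveolar panel in F11 was 80.1 per 10000 UMIs in basal cells, 67.7 in fibroblasts and 37.6 in endothelial cells. In D6 these medians were 16.2, 14.0 and 11.7, and in A10 they were 0, 1.80 and 0. The part of this panel signal in the lactation levels and calls was not tested. The gated classes of all libraries stand in place of the study's clusters. The E-cadherin-GFP and Lgr5-GFP reporters were used for dissection only.

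Counts were summed per library and class with 20 or more cells, and tested with edgeR 4.0.16 in R 4.3.3 (quasi-likelihood test, TMM scaling, filterByExpr, Benjamini-Hochberg adjusted p under 0.05 over all genes). Class contrasts and interactions had the library as a block, and the 9 FVB/NJ libraries of 4 stages shared 1 fit per class. ML stage tests were added after the levels were seen. TEB and duct ratios have exact conditional binomial 95% intervals, and levels exact Poisson intervals. A count of 0 allows up to 3 counts. UMI intervals cover counting error only.

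Alternatives were no TMM, DESeq2 1.42.0, no low-count filter, a stricter gate (log2 ratios of 2 and -2, and of 2 and -1), at least 1000 genes per cell, leaving out each library, no block, and, added after seeing the data, milk genes in totals. The fits were tested on simulated data. The members and lists were chosen with earlier results of these data known. All 9 members are named or counted in every main comparison (those too low to test only as such). Also named are up to 4 list genes past the test with the largest change, and any gene that a sentence needed. The 3 genes most like each member (10 CPM or more in at least 1 sum) are named too. Per the study's methods the embryonic pair, the TEB and duct pair, and the C57BL/6 and SWISS adults with pre-puberty were each processed together, as were an FVB/NJ adult and the post-involution gland. A gene of the basement membrane list is counted in its totals but is not reported here by name.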

Additional observations from a re-analysis of the deposited data

Results flagged for a closer look

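The change from adult to lactation differed between basal and LP/alveolar cells for 5 of the 9 genes, by edgeR's test of the class and stage interaction over 9 FVB/NJ libraries, where 17.8% of all genes were called. The values are the basal log2 change minus the LP/alveolar log2 change. Lama1 was at -2.19, with 69.4, 52.5 and 17.8 CPM in adult and 87.5 and 35.2 in lactating basal cells beside 3.79, 2.55 and 1.97 and then 14.9 and 11.6 in LP/alveolar cells. Nid1 was at -3.45, with 5.58 to 11.7 CPM in adult and 11.8 and 13.3 in lactating basal cells beside 0.215 to 0.510 and then 2.15 and 3.86 in LP/alveolar cells. Lamb1 was at -1.88, with basal levels that overlapped between the stages and LP/alveolar levels that did not. Lama5 was at -1.66, with both lactating basal libraries (10.4 and 13.3 CPM) below all 3 adult ones (21.2 to 35.6). Lama3 was at 2.09, with both lactating LP/alveolar libraries (1.91 and 0.373 CPM) below all 3 adult ones (3.72 to 4.59), and lost its call with at least 1000 genes per cell (1.67). Without lactation library D6, Lama1 alone kept its call among these 5. No group held enough libraries for a search for samples far from the others.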

How the results depend on the processing

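Class calls stood under each alternative run except 2. Without the library as replicate block, 6 members passed against LP/alveolar cells (7 with the block), 7 against ML cells (8 with it) and 8 against fibroblasts (8 with it), Lama5 being the call lost. Between stages no pairing of libraries was possible because GEO's labels number no replicates. The numbers in the study's sample list tie no mouse or batch of one stage to another. From adult to day 12.5 in basal cells, DESeq2 called 1 and no low-count filter 1 (0 as reported). From day 12.5 to 18.5 in LP/alveolar cells both called 2 (0 as reported). From day 18.5 to lactation there, no TMM called 0, DESeq2 2, no low-count filter 3 and at least 1000 genes per cell 0 (1 as reported). With at least 1000 genes per cell the lactation interaction lost Lama3 and gained Lamc1. The interaction at day 12.5 had 1 call with no low-count filter. In ML cells at day 12.5 no TMM and DESeq2 called 2 each, adding Lamb1 (1.87 and 1.80), from day 12.5 to 18.5 DESeq2 and no low-count filter called 1 each, and in lactation at least 1000 genes per cell called 0, with Nid1 at -4.46. There D6 had under 20 ML cells, so F11 alone stood for lactation. The shares of all genes called belong to the fits as reported. None is given for the alternatives, so a higher member count under one of them has no background beside it.

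Leaving out 1 library gave 7 to 7 calls against LP/alveolar cells, 8 to 9 against ML cells and 8 to 8 against fibroblasts. Basal stage calls ran from 0 to 1 (adult to day 12.5), 0 to 0, 0 to 0 and 0 to 1 (adult to lactation). LP/alveolar calls ran from 0 to 2, 0 to 2, 0 to 2 and, adult to lactation, 3 to 5. Interaction calls ran from 0 to 2 and, in lactation, 1 to 6. ML calls ran from 0 to 2, 0 to 1 and 0 to 1. Where 1 library of a stage was left, its spread was taken to be that of the others.

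With the stricter gate, 4 basal members were past 2-fold between TEBs and ducts (3 as reported), and 11 of 257 epithelial levels at 5 CPM or more moved by over 1.5-fold. Milk genes in totals changed no direction and no call among 101 results. No TMM moved the median of all genes by -0.37 (log2) in LP/alveolar cells and by 0.35 in the interaction from adult to lactation, and by at most 0.20 elsewhere. Depth limits Nid2 in epithelial cells and all members in ML cells of pregnancy and lactation.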

Other observations

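Further laminin chains, outside the 9 genes, are given here by class, as ranges over libraries with at least 20 cells of the class and with no test. Lamb2, a beta chain related to Lamb1, was 37.2 to 123 CPM in endothelial cells of 5 libraries (median 85.4) and reached 174 CPM in fibroblasts of 13 libraries (median 75.9). It was 7.48 to 49.9 CPM in basal cells and 13.1 to 36.8 CPM in ML cells of 16 libraries each, ranges that overlap. Lama2 was 60.1 to 341 CPM in fibroblasts and at most 4.02 CPM in basal cells, so these ranges lay apart. Lamc3 reached 69.9 CPM in fibroblasts of the 5-day gland, where the median over 13 libraries was 0.726 CPM, and had a median of 0.615 CPM in basal cells. Adipocytes were gated in both lactation libraries, with 87 cells in F11 and 434 in D6. Their Nid1 was 39.5 and 63.5 CPM and their Lamb1 35.9 and 46.5 CPM, while Lamb3 had no UMI in either, which allows up to 10.8 CPM in F11 and 1.16 CPM in D6.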
